A study of Mus musculus with 4 samples.

Results

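The 51 genes described here encode the semaphorins of classes 3 to 7, the plexins and neuropilins that receive them, the ephrins and the Eph receptors. They were taken by name from a table of 15803 genes, and a gene had to reach a mean of 10 normalised counts over the 4 libraries, which all 51 did. Of these, 28 encode ligands (20 semaphorins and 8 ephrins) and 23 encode receptors (8 plexins, 2 neuropilins and 13 Eph receptors). A normalised count is the number of reads of a gene divided by a scaling factor of its library, so it compares libraries within a gene but not genes of different length.

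RNA came from the second heart field (SHF) region, cut out of mouse embryos at E8.5, and was sequenced as 2 Hoxb1Mu and 2 WT libraries. Hoxb1Mu embryos are Hoxb1-/- in the methods of the study, a loss of the Hoxb1 transcription factor in every cell of the embryo. The methods list the Hoxb1GFP and Hoxb1IRES-Cre alleles under the name Hoxb1-. No further allele and no treatment is named for either group. The dissected piece was not sorted, so each library mixes progenitors with the neighbouring neural, endodermal and vascular cells. Per the methods RNA of a genotype was pooled into a replicate, but 3 of the 4 libraries held almost no Y-linked reads, so whether each library was a pool or 1 embryo was not settled. Nothing states that the 2 libraries of a genotype came from separate litters, so p-values measure only the spread between these libraries. In such bulk tissue fewer cells of a type and less RNA per cell cannot be told apart.

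Semaphorins, secreted or membrane-bound, bind plexins on another cell, and most class 3 members need a neuropilin as co-receptor. Plexins then act on small GTPases and on the cytoskeleton, which turns or stops a moving cell or growing vessel. Ephrins sit in the membrane, through a lipid anchor (ephrin-A) or a transmembrane segment (ephrin-B), and bind Eph receptor tyrosine kinases on contact, with signals passing into both cells. In the early heart and head these families are known for steering cardiac neural crest into the outflow tract, for patterning arteries and veins, and for keeping hindbrain segments apart.

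The 4 libraries held between 31331595 and 34383760 reads in the listed genes. Hoxb1 itself had 137 and 167 normalised counts in the Hoxb1Mu libraries, against 682 and 617 in the WT libraries, a log2 fold change of -2.09 ± 0.14 (SE, n = 2 each) with an adjusted p of 0.0806 by limma and of 2.73e-21 by DESeq2. Both Hoxb1Mu libraries stood apart from WT in sex-linked transcripts, each in its own way. The Y-linked genes Ddx3y, Eif2s3y, Uty and Kdm5d had 1131 to 2205 normalised counts in Hoxb1Mu 1, at most 0.943 in Hoxb1Mu 2 and at most 4.81 in the WT libraries. The X-inactivation transcript Xist had 111 in Hoxb1Mu 1 and 5935 in Hoxb1Mu 2, against 26992 and 32024 in the WT libraries. All 7 SHF progenitor markers were detected in all libraries. Without Hoxb1 itself they summed to 6138 and 6553 in Hoxb1Mu, against 5894 and 5345 in WT, and DESeq2 called Tbx1 higher (adjusted p of 0.0135). Several marker lists of other cells shifted with genotype, and no marker was at 0 in any library. Higher in both Hoxb1Mu libraries were 7 of 7 cardiomyocyte, 7 of 8 neural crest and 6 of 9 neural tube markers. Lower in both were 8 of 8 yolk sac endoderm markers and 1 neural tube marker, Olig3. Of all genes tested, 26.4% were higher in both Hoxb1Mu libraries and 27.1% were lower. Summed cardiomyocyte markers had 40307 and 49668 normalised counts in Hoxb1Mu, against 28225 and 29587 in WT. Neural crest markers summed to 8886 and 9886 in Hoxb1Mu, against 6602 and 6704 in WT, and neural tube markers to 11306 and 11688 in Hoxb1Mu, against 10015 and 9513 in WT. Yolk sac endoderm markers summed to 75711 and 36907 in Hoxb1Mu, against 122656 and 112685 in WT. The summed endothelial markers overlapped, with 16444 and 15609 in Hoxb1Mu, against 15439 and 15770 in WT, although 5 of 10 were higher in both Hoxb1Mu libraries and 1 was lower. Primitive red blood cell markers set WT 2 apart, with 2345 and 801 in Hoxb1Mu, against 445 in WT 1 and 15575 in WT 2. Summed somite markers overlapped between the groups. Summed foregut endoderm markers, at 1286 and 1237 in Hoxb1Mu, lay below the 1492 and 1363 of WT, but the list was split. Foxa2 and Sox17 were lower in both Hoxb1Mu libraries, Shh overlapped, and Nkx2-1, the lowest in level, was higher. The part of these shifts in the differences described next was not tested.

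The 4 genes that a count-based test called lower in Hoxb1Mu tissue, Nrp1, Plxna2, Sema3e and Efnb1, are shown by the 250 bases before their RefSeq start. They are printed to show whether the sites that Hox proteins and their partners bind lie close to these starts. The capitals mark a match to the MEIS site TGACAG, read on both strands. Sequences are from RefSeq on GRCm38.p6, written from 5′ to 3′ on the strand of the gene.
Nrp1, chr8:128358823-128359072, + strand: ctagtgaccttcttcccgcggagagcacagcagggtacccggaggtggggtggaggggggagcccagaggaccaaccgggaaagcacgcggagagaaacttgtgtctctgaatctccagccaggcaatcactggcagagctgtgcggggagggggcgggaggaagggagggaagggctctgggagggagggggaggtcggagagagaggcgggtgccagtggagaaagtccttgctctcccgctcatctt
Plxna2, chr1:194619579-194619828, + strand: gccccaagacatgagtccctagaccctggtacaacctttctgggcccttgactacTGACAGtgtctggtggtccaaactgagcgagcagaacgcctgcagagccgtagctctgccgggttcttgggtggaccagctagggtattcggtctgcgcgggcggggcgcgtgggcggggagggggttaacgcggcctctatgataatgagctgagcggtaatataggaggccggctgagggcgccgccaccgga
Sema3e, chr5:14025026-14025275, + strand: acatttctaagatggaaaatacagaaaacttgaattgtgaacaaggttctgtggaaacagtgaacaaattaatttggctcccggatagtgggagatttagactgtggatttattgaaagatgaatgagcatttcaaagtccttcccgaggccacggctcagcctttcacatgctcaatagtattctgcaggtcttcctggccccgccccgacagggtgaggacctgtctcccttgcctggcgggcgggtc
Efnb1, chrX:99135811-99136060, + strand: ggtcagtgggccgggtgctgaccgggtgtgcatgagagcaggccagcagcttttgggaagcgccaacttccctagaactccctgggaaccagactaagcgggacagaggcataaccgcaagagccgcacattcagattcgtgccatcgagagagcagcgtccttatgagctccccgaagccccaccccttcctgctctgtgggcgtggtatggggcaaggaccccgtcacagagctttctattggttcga
The Nrp1 and Plxna2 windows lie inside longer transcripts that GENCODE vM21 annotates, so RefSeq and GENCODE place those starts differently. Plxna2 had a MEIS site at position -195 relative to the start, and the 3 other windows had none. The PBX-HOX site TGATNNAT was in none of the 4 windows, which says only that these letters do not occur there. Among the 45 members with a RefSeq window, 7 held TGACAG and 1 held TGATNNAT. Of all 27025 genes with a window, 18.0% held TGACAG and 8.81% held TGATNNAT. The 1 member with TGATNNAT was Sema6d, whose window at an inner start is given with the match in capitals, at position -111 relative to the start.
Sema6d, chr2:124653331-124653580, + strand: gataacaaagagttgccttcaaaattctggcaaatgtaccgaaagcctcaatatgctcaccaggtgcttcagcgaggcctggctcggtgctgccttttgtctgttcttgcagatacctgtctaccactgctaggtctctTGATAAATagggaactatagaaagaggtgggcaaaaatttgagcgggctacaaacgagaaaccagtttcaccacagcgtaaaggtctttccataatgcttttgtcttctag
The Nrp1 window held 64.4% G and C bases, that of Plxna2 62.8% and that of Sema3e 48.0%. The median was 64.4% over the member windows and 52.4% over all windows.

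Over the 51 genes the differences between Hoxb1Mu and WT were small, and more genes lay above WT than below it. The log2 fold change, Hoxb1Mu over WT, ran from -0.55 for Sema4a to 0.55 for Sema4f, with 34 genes above 0 and 17 below. In 21 genes (41.2%) both Hoxb1Mu libraries were higher than both WT libraries, and over all 15760 genes tested 26.4% were. In 11 genes (21.6%) both were lower, against 27.1% of all genes. The groups thus lay apart, in either direction, in 32 of the 51 genes, where 53.5% of all genes did. Between the 2 libraries of a genotype the median absolute log2 difference over the 51 genes was 0.11 in Hoxb1Mu and 0.10 in WT. Over all genes tested it was 0.10 in Hoxb1Mu and 0.11 in WT.

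limma, fitted across all genes, called 0 of the 51 at an adjusted p under 0.05, and 0.0% of all genes in either direction. The smallest limma adjusted p over all genes was 0.0806. At an unadjusted limma p under 0.05 there were 16 members (31.4%), 10 higher and 6 lower in Hoxb1Mu. Of all genes 18.6% were under that p, 8.8% higher and 9.82% lower. edgeR on the recovered reads also called 0 of the 51 and 0.0% of all genes. DESeq2 on the same reads called 5 of the 46 members to which it gave an adjusted p (10.9%), beside 4.72% of all genes. Efnb3 was the 1 called higher, where 2.01% of all genes were, and Nrp1, Plxna2, Sema3e and Efnb1 were the 4 called lower, where 2.71% were. Epha3, Epha5, Epha10, Efna3 and Sema7a were without a DESeq2 adjusted p.

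**Figure D1:**
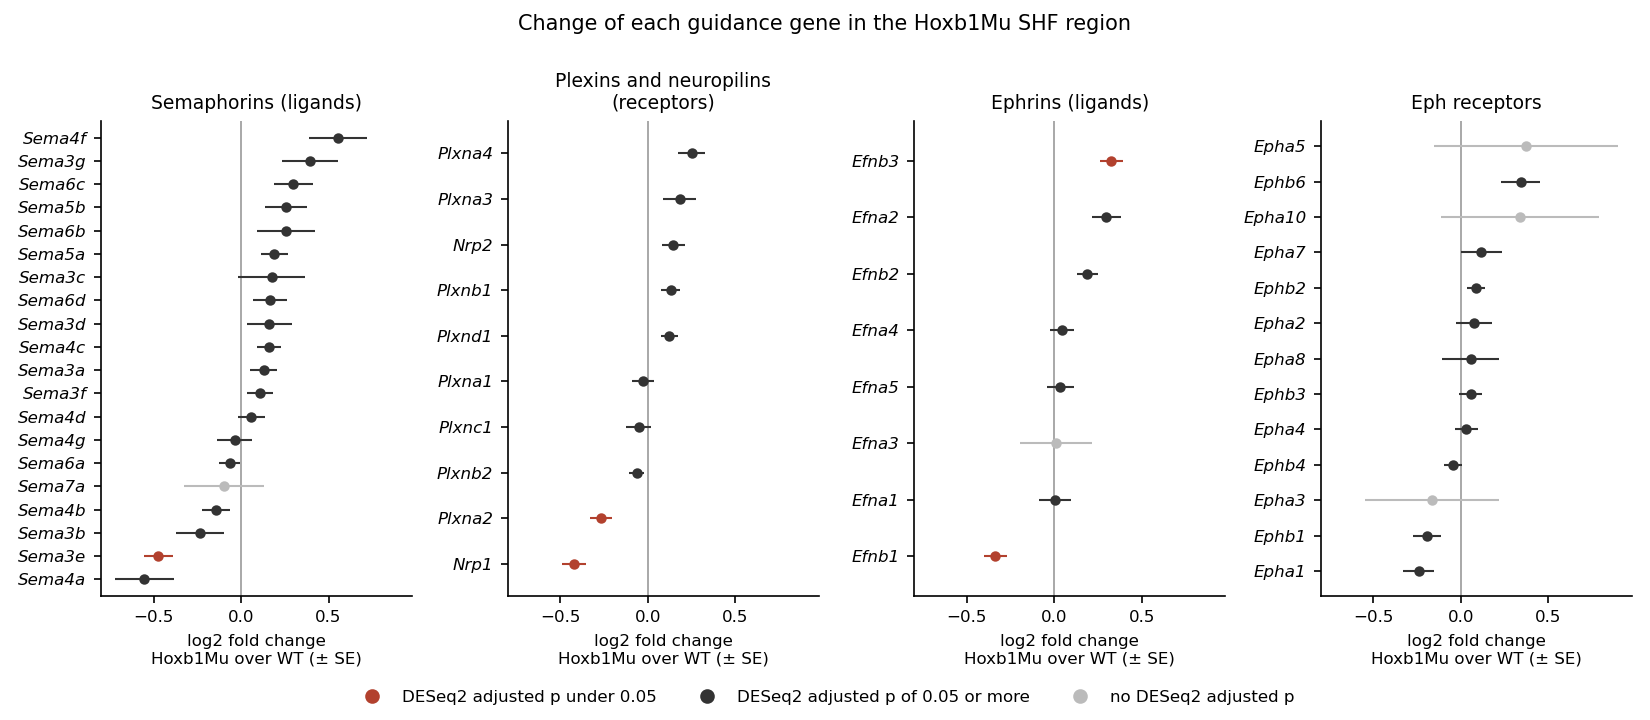
Log2 fold change of Hoxb1Mu over WT for each guidance gene from limma, with bars of ± SE (n = 2 libraries each), in 4 panels by gene class; colour gives the DESeq2 call. The 5 genes called by DESeq2 are Efnb3 at 0.32, Plxna2 at -0.27, Efnb1 at -0.34, Nrp1 at -0.42 and Sema3e at -0.47, and most other points lie within 0.30 of 0.

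Ligands and receptors both had medians close to 0. The median log2 fold change was 0.12 over the 28 ligands, 0.06 over the 23 receptors and 0.00 over all genes tested. Of the ligands 20 lay above 0 and 8 below, and of the receptors 14 lay above 0 and 9 below. In 46.4% of ligands both Hoxb1Mu libraries were higher than both WT libraries and in 21.4% both were lower. The shares for receptors were 34.8% and 21.7%, and those for all genes tested were 26.4% and 27.1%. The order of the medians rested on 1 library, since without Hoxb1Mu 1 the ligand median was 0.10 and the receptor median 0.13. By class, the median was 0.15 for semaphorins, 0.05 for plexins and neuropilins, 0.04 for ephrins and 0.06 for Eph receptors. Summed per kilobase of exon, ligands reached 6735 normalised counts in Hoxb1Mu and 6546 in WT, and receptors 7882 in Hoxb1Mu and 7916 in WT.

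Levels per kilobase of exon spread over 3 orders of magnitude, and the order was led by receptors and ephrin-B ligands. Plxnb2, a receptor of class 4 semaphorins that is known for its role in neural tube closure, was highest with 1375 normalised counts per kilobase in Hoxb1Mu and 1436 in WT. Efnb1 followed with 1054 in Hoxb1Mu and 1328 in WT, then Plxna1, a widely used semaphorin receptor, with 894 in Hoxb1Mu and 912 in WT. Efnb2 and Ephb4, the arterial ligand and venous receptor that mark the 2 sides of the early circulation, came next. Efnb2 had 942 per kilobase in Hoxb1Mu and 828 in WT, and Ephb4 had 833 in Hoxb1Mu and 861 in WT. The highest semaphorin was Sema4c, a transmembrane ligand of plexin B2, with 632 in Hoxb1Mu and 566 in WT. Epha3, Epha10 and Epha5 closed the order, with 5.07, 2.20 and 0.926 per kilobase in Hoxb1Mu, against 5.35, 1.73 and 0.685 in WT.

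**Figure D2:**
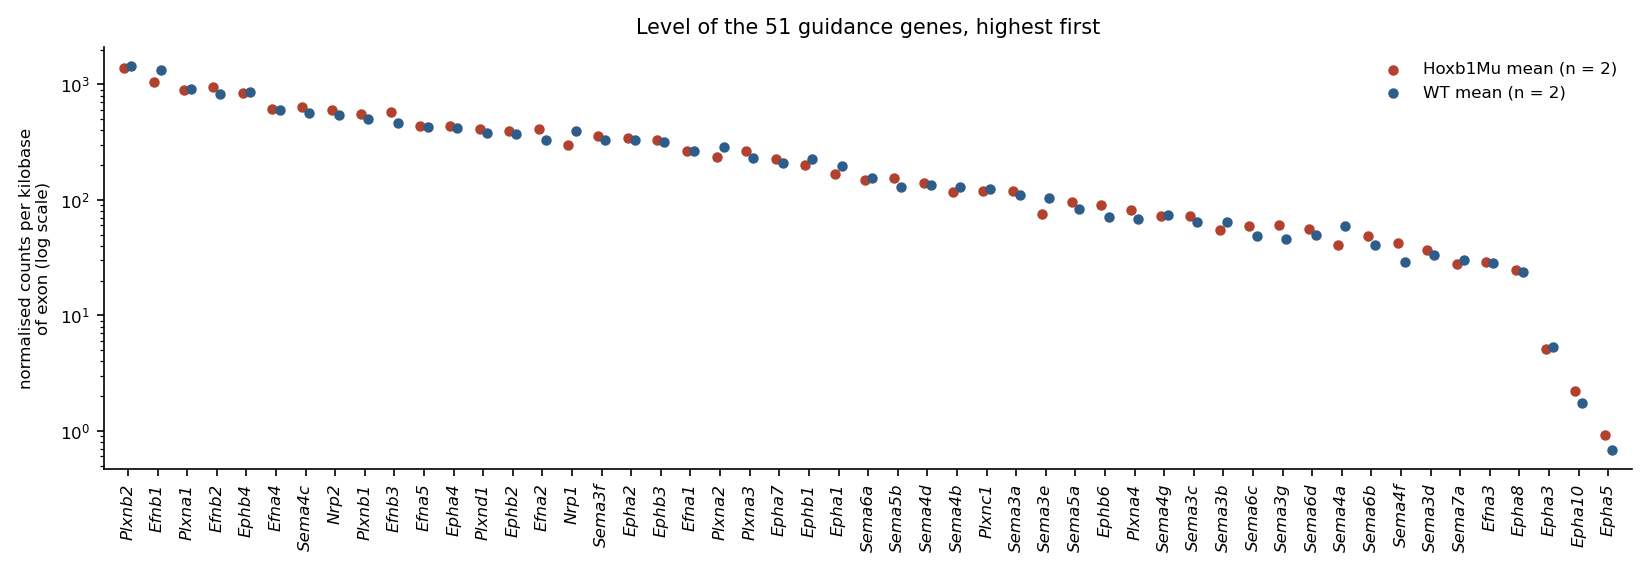
Mean normalised counts per kilobase of exon for each of the 51 genes in Hoxb1Mu (red) and WT (blue) on a log axis, with n = 2 libraries per mean and no error bar, ordered by the mean over all libraries. Nearly all pairs of points lie close together, and the levels run from 1375 (Hoxb1Mu) and 1436 (WT) for Plxnb2 to 0.926 (Hoxb1Mu) and 0.685 (WT) for Epha5.

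Among the secreted class 3 semaphorins, Sema3e differed most. Sema3e, a ligand that binds plexin D1 without a neuropilin, lies on chromosome 5 from 14025276 to 14256689 of mm10. It had 730 and 667 normalised counts in the Hoxb1Mu libraries, against 948 and 990 in the WT libraries. Both Hoxb1Mu libraries were lower than both WT libraries. The log2 fold change was -0.47 ± 0.08 (SE, n = 2 each), with an adjusted p of 0.155 by limma and of 0.0136 by DESeq2. Plxnd1, its receptor in endothelium, had 2990 and 3031 in Hoxb1Mu, against 2746 and 2779 in WT. Here both Hoxb1Mu libraries were the higher ones, with a log2 fold change of 0.12 ± 0.05 and a limma adjusted p of 0.265. The ratio of Sema3e to Plxnd1 per kilobase was 0.192 and 0.173 in Hoxb1Mu, against 0.271 and 0.280 in WT. This ratio is a description, made from the same values as the fold changes.

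The other secreted semaphorins were not called by DESeq2, which called 4.72% of all genes, nor by limma and edgeR, which called 0.0%. Sema3g, a ligand made by vessels that acts through neuropilin 2, had 305 and 244 normalised counts in Hoxb1Mu, against 221 and 194 in WT. Sema3b, which acts through neuropilins and is known as a tumour suppressor, had 284 and 237 in Hoxb1Mu, against 292 and 319 in WT. The groups did not overlap in either gene, with log2 fold changes of 0.39 ± 0.16 for Sema3g and of -0.24 ± 0.14 for Sema3b, the second at -0.10 without Hoxb1Mu 2. Sema3c, which outflow tract cells use to attract neural crest, had 574 and 455 in Hoxb1Mu, against 537 and 382 in WT. These libraries interleaved, and the 95% interval of its log2 fold change was -0.30 to 0.65. Sema3a, a classical repellent of axons through neuropilin 1, had 1567 and 1771 in Hoxb1Mu, against 1531 and 1515 in WT. Sema3d, needed for the pulmonary veins, had 307 and 329 in Hoxb1Mu, against 308 and 262 in WT, and Sema3f, a ligand of neuropilin 2, had 1804 and 1915 in Hoxb1Mu, against 1641 and 1814 in WT. Sema3a did not overlap between the groups, while Sema3d and Sema3f did, with log2 fold changes of 0.13 ± 0.08 for Sema3a, 0.16 ± 0.13 for Sema3d and 0.11 ± 0.07 for Sema3f.

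The membrane semaphorins held both ends of the range. Sema4a, known from T cells and the retina, had 251 and 190 normalised counts in Hoxb1Mu, against 306 and 336 in WT. Sema4f, a ligand of the nervous system, had 208 and 243 in Hoxb1Mu, against 169 and 139 in WT. The groups lay apart in both, lower for Sema4a and higher for Sema4f in Hoxb1Mu. The log2 fold changes were -0.55 ± 0.17 and 0.55 ± 0.17, and both had an adjusted p of 0.192 by limma, with 0.213 for Sema4a and 0.275 for Sema4f by DESeq2. The 2 levels were low, at 40.8 and 42.7 normalised counts per kilobase in Hoxb1Mu, against 59.3 and 29.1 in WT.

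Other membrane semaphorins lay on both sides of WT, and none was called with all libraries. Over all 20 semaphorins 45.0% were higher in both Hoxb1Mu libraries and 25.0% were lower, beside 26.4% and 27.1% of all genes. Sema6c, a class 6 ligand, had 355 and 355 normalised counts in Hoxb1Mu, against 302 and 275 in WT. Its groups did not overlap, with a log2 fold change of 0.30 ± 0.11 and a limma adjusted p of 0.242. Sema6d, a class 6 ligand of plexin A1 that is known from the chick heart tube, had 613 and 572 in Hoxb1Mu, against 554 and 503 in WT. Sema4c had 2844 and 2962 in Hoxb1Mu, against 2467 and 2733 in WT. Both genes lay apart, with log2 fold changes of 0.17 ± 0.10 for Sema6d and 0.16 ± 0.07 for Sema4c. Sema4d, the ligand of plexin B1, had 1025 and 1104 in Hoxb1Mu, against 1056 and 989.7 in WT, and its libraries interleaved. The remaining 7 semaphorins had log2 fold changes between -0.14 for Sema4b and 0.26 for Sema5b. Of these, Sema5a, Sema5b and Sema6b were higher in both Hoxb1Mu libraries, Sema4b and Sema6a were lower, and Sema4g and Sema7a overlapped.

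Nrp1 had the lowest DESeq2 adjusted p of the 51 genes. It encodes neuropilin 1, the co-receptor of Sema3a and of vascular endothelial growth factor, and lies on chromosome 8 from 128358604 to 128503363. Nrp1 had 3066 and 2732 normalised counts in Hoxb1Mu, against 3865 and 3880.0 in WT. Both Hoxb1Mu libraries were below WT, with an SD of 236 in Hoxb1Mu and of 10.7 in WT. The log2 fold change was -0.42 ± 0.07, with an adjusted p of 0.150 by limma, 0.147 by edgeR and 1.43e-04 by DESeq2. Exons of Nrp1 overlap a microRNA gene on the same strand. Of all genes, 26.4% were higher in both Hoxb1Mu libraries than in both WT libraries and 27.1% were lower. Of the 10 endothelial markers, 5 were higher in both and 1 was lower. That 1 was Tek, the receptor of angiopoietins, with 2242 and 1533 in Hoxb1Mu, against 2802 and 2857 in WT. The log2 fold changes of the 10 markers ran from -0.61 for Tek to 0.35 for Emcn, with a median of 0.11.

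Its paralogue Nrp2, which binds Sema3c, Sema3f and Sema3g, pointed the other way. Nrp2 had 7182 and 7052 normalised counts in Hoxb1Mu, against 6815 and 6066 in WT. The groups lay apart, with a log2 fold change of 0.15 ± 0.07 and an adjusted p of 0.295 by limma and of 0.304 by DESeq2. It was 0.06 without WT 2. Nrp1 made up 34.1% and 31.9% of the neuropilin level per kilobase in Hoxb1Mu, against 40.7% and 43.6% in WT. The summed neuropilin level overlapped between groups, with 919.8 and 875 per kilobase in Hoxb1Mu, against 970.5 and 909 in WT. These shares are a description, since the genes were picked after Nrp1 had been called.

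Plxna2 was the second receptor called lower. The product, plexin A2, marks cardiac neural crest on its way to the outflow tract, and the gene lies on chromosome 1 from 194618218 to 194816869. It had 4255 and 3885 normalised counts in Hoxb1Mu, against 4956 and 4828 in WT. Both Hoxb1Mu libraries were the lower ones, with a log2 fold change of -0.27 ± 0.06 and an adjusted p of 0.155 by limma and of 0.0151 by DESeq2. Over the same libraries 7 of 8 neural crest markers were higher in both Hoxb1Mu libraries, beside 26.4% of all genes. DESeq2 called 6 of the 8 higher, beside 2.01% of all genes. The crest factor Sox10, for example, had 1223 and 1125 in Hoxb1Mu, against 552 and 526 in WT.

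The other class A plexins, signalling partners of the neuropilins, lay above WT or interleaved with it. Plxna4, a receptor of Sema3a in neurons, had 1195 and 1093 normalised counts in Hoxb1Mu, against 947 and 973 in WT. Plxna3, an X-linked receptor of Sema3f, had 2023 and 2115 in Hoxb1Mu, against 1663 and 1995 in WT. Both lay apart and were higher in Hoxb1Mu, with log2 fold changes of 0.25 ± 0.08 for Plxna4 and 0.18 ± 0.10 for Plxna3, and neither was called. Plxna3 rested on the WT libraries, at 0.05 without WT 1 and 0.31 without WT 2. Plxna1, the most abundant of the 4, had 8292 and 7890.1 in Hoxb1Mu, against 8671 and 7839 in WT, so its libraries interleaved. Its log2 fold change was -0.03 ± 0.06, and 0.0005 when the libraries were rescaled to equal totals. Plxna2 made up 16.5% and 15.7% of the class A level per kilobase in Hoxb1Mu, against 18.9% and 19.1% in WT. For Plxna4 the share was 5.63% and 5.37% in Hoxb1Mu, against 4.40% and 4.70% in WT. These shares too are a description, made from the same values as the fold changes. Plxnb2 had 10826 and 10405 normalised counts in Hoxb1Mu, against 11147 and 11026 in WT, a log2 fold change of -0.06 ± 0.04. Its groups lay narrowly apart, and Plxnb1 and Plxnc1 had log2 fold changes of 0.13 and -0.05.

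**Figure D3:**
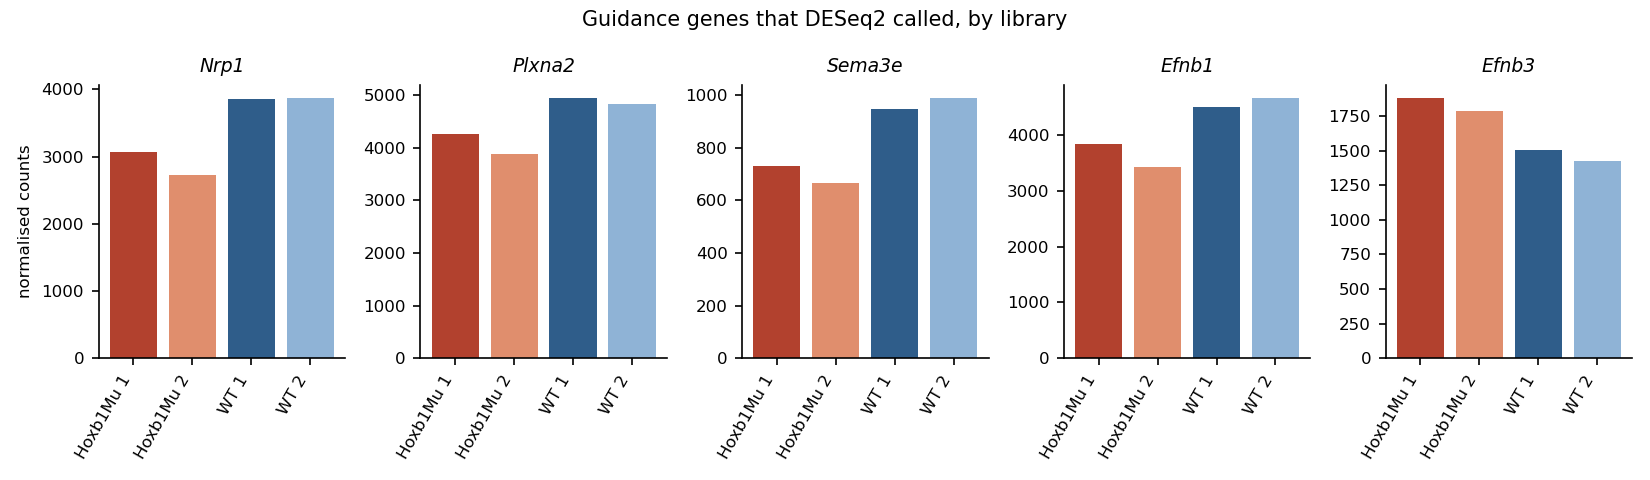
Normalised counts of Nrp1, Plxna2, Sema3e, Efnb1 and Efnb3 in each library (2 Hoxb1Mu bars in red, then 2 WT bars in blue), each axis starting at 0. Both Hoxb1Mu bars lie below both WT bars in the first 4 genes, as for Nrp1 with 3066 and 2732 in Hoxb1Mu against 3865 and 3880.0 in WT, and above them in Efnb3.

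The 3 ephrin-B ligands, which signal back into the cell that carries them, all lay apart between the groups. Efnb1, an X-linked gene needed in neural crest for the face and body wall, lies on chromosome X from 99136130 to 99148991. It had 3844 and 3429.6 normalised counts in Hoxb1Mu, against 4498 and 4673 in WT. Hoxb1Mu lay below WT in both libraries, which both also had less Xist than WT, and the part of sex-linked differences was not tested. The log2 fold change was -0.34 ± 0.07, with an adjusted p of 0.155 by limma and of 0.00317 by DESeq2. Efnb3, known as a midline barrier of the neural tube, lies on chromosome 11 from 69554092 to 69560205. It had 1883 and 1783 in Hoxb1Mu, against 1501 and 1425 in WT. In this gene both Hoxb1Mu libraries were the higher ones, with a log2 fold change of 0.32 ± 0.07 and an adjusted p of 0.155 by limma and of 0.0255 by DESeq2. In the same tissue 6 of 9 neural tube markers were higher in both Hoxb1Mu libraries and 1 was lower, beside 26.4% and 27.1% of all genes.

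Efnb2, the arterial ephrin, had 6418 and 6502 normalised counts in Hoxb1Mu, against 5958 and 5390.1 in WT. Both Hoxb1Mu libraries were higher, with a log2 fold change of 0.19 ± 0.06 and an adjusted p of 0.205 by limma and of 0.111 by DESeq2. The shares of all 3 among ephrin-B transcripts lay apart between the groups, while the sum overlapped. Efnb1 gave 42.2% and 39.7% of the level per kilobase in Hoxb1Mu, against 49.3% and 52.3% in WT. Efnb2 gave 35.4% and 37.9% in Hoxb1Mu, against 32.9% and 30.4% in WT. Efnb3 gave 22.4% in both Hoxb1Mu libraries, against 17.8% and 17.3% in WT. The sum of the 3 was 2641 and 2502 per kilobase in Hoxb1Mu, against 2644 and 2588 in WT. These shares come from the same values as the fold changes, so they are a description and no further evidence.

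**Figure D4:**
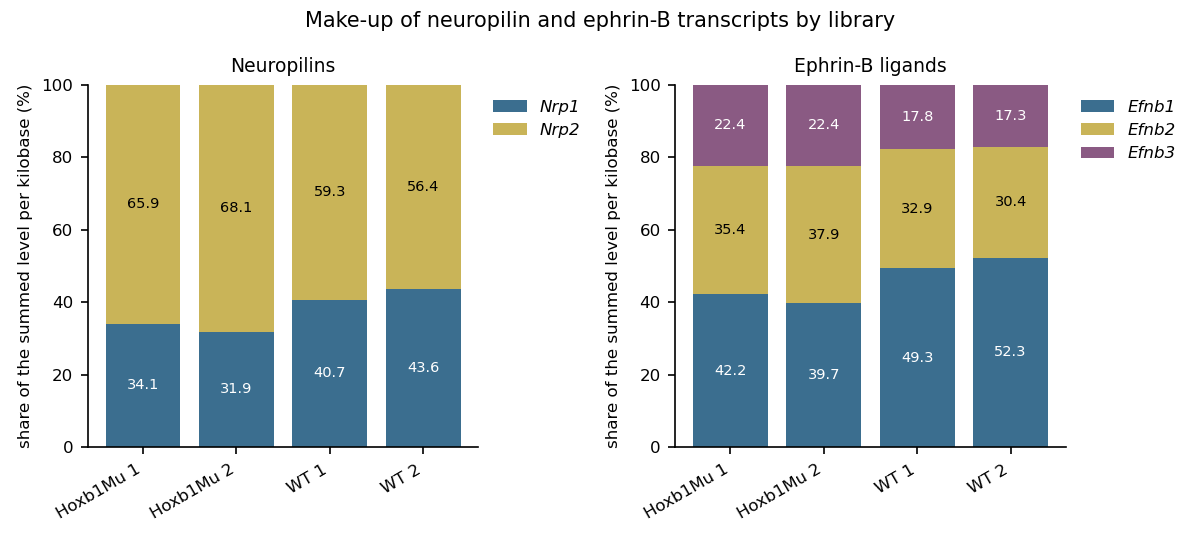
Share of the summed level per kilobase of exon (percent) that each neuropilin and each ephrin-B ligand took, as stacked bars for the 2 Hoxb1Mu and then the 2 WT libraries. Nrp1 took 34.1% and 31.9% in Hoxb1Mu against 40.7% and 43.6% in WT, and Efnb1 took 42.2% and 39.7% in Hoxb1Mu against 49.3% and 52.3% in WT. The shares are a description, made from the same values as the fold changes.

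Of the lipid-anchored ephrin-A ligands, Efna2 differed most. It had 886 and 853 normalised counts in Hoxb1Mu, against 739 and 678 in WT. The groups did not overlap, Hoxb1Mu being higher, with a log2 fold change of 0.30 ± 0.08 and an adjusted p of 0.179 by limma and of 0.221 by DESeq2. Efna5, a repellent that maps axons in the visual system, had 1717 and 1781 in Hoxb1Mu, against 1812 and 1607 in WT. Its libraries interleaved, and the 95% interval of the log2 fold change was -0.15 to 0.22. Efna1, Efna3 and Efna4 had log2 fold changes between 0.00 and 0.04.

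DESeq2 gave an adjusted p to 10 of the 13 Eph receptors and called none, where it called 4.72% of all genes. limma and edgeR also called none, but they called 0.0% of all genes. Of the 13, 2 (15.4%) had an unadjusted limma p under 0.05, beside 18.6% of all genes. Ephb6, a receptor whose kinase domain is inactive, had 333 and 353 normalised counts in Hoxb1Mu, against 278 and 263 in WT. Epha1, an ephrin-A receptor, had 622 and 688 in Hoxb1Mu, against 767 and 781 in WT. Both lay apart, Ephb6 higher at 0.34 ± 0.11 and Epha1 lower at -0.24 ± 0.09 in log2 fold change, with limma adjusted p of 0.210 and 0.231. Ephb1, a receptor of ephrin-B ligands in axon guidance, had 1302 and 1483 in Hoxb1Mu, against 1571 and 1603 in WT. It lay apart too, at -0.19 ± 0.08, with a limma adjusted p of 0.275. Exons of Epha1 and Ephb1 overlap a gene on the other strand in GENCODE. So do those of Efna3, Efna4, Epha10, Ephb4, Plxna1, Plxna4, Plxnb1 and Sema4c. Whether reads were counted by strand is not given in the sources used here.

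Of the Eph receptors with roles at vessels, in the hindbrain or in the neural tube, Ephb4, Epha4, Epha2 and Epha7 did not separate the groups. Ephb4, the venous partner of Efnb2, had 3807 and 3926 normalised counts in Hoxb1Mu, against 4078 and 3909 in WT. Epha4, a receptor that alternate hindbrain segments express, had 3291 and 3666 in Hoxb1Mu, against 3451 and 3350.1 in WT. The libraries of both genes interleaved, and the 95% intervals of the log2 fold change were -0.17 to 0.08 for Ephb4 and -0.13 to 0.19 for Epha4. Epha2, whose hindbrain enhancer is known to bind Hox and Pbx proteins, had 1473 and 1753 in Hoxb1Mu, against 1444 and 1614 in WT. Epha7, an ephrin-A receptor of the neural tube, had 2153 and 2302 in Hoxb1Mu, against 2313 and 1823 in WT. Neither gene separated the groups, with intervals of -0.18 to 0.33 for Epha2 and of -0.17 to 0.40 for Epha7. With 2 libraries per group, changes inside those bounds remained possible. Ephb2, which recognises ephrin-B ligands, had 4821 and 5120 in Hoxb1Mu, against 4724 and 4630.3 in WT, and Epha8 had 117 and 117 in Hoxb1Mu, against 109 and 115 in WT. Both lay narrowly apart, at 0.09 ± 0.05 and 0.06 ± 0.16 in log2 fold change.

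The calls for the 5 genes were lost when any of 3 libraries was left out, while the fold changes kept their direction. DESeq2 called none of them without WT 1, without WT 2 or without Hoxb1Mu 2, with Nrp1 at adjusted p of 0.117, 0.129 and 0.238. Over all genes its calls then numbered 89, 66 and 119, against 556 with all libraries. In those 3 fits the DESeq2 log2 fold change of Nrp1 was -0.42, -0.42 and -0.34, that of Efnb1 -0.36, -0.31 and -0.25, and that of Plxna2 -0.25, -0.29 and -0.20. For Sema3e it lay between -0.41 and -0.505 and for Efnb3 between 0.29 and 0.36. Without Hoxb1Mu 1, the library with Y-linked reads, DESeq2 called Nrp1 (adjusted p of 7.20e-04), Efnb1 (0.00578) and Plxna2 (0.0464), but neither Sema3e (0.105) nor Efnb3 (0.504). In the same 3 libraries limma called 5 members, all lower, where it called 4.52% of all genes lower and 1.45% higher. They were Nrp1 at an adjusted p of 0.00553, Efnb1 at 0.0125, Sema3e at 0.0228, Plxna2 at 0.0307 and Sema4a at 0.0375. The log2 fold change of Nrp1 was then -0.50, that of Efnb1 -0.42 and that of Plxna2 -0.33. With 1 Hoxb1Mu library left, that library is taken to vary as the WT libraries do.

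Other genes of semaphorin and plexin signalling mostly lay above WT. Of 24 such genes, 16 (66.7%) were higher in both Hoxb1Mu libraries and 4 (16.7%) were lower, beside 26.4% and 27.1% of all genes, and their median was 0.14 on the log2 scale. limma and edgeR called none of the 24 and 0.0% of all genes, and 10 (41.7%) had an unadjusted limma p under 0.05, beside 18.6% of all genes. DESeq2 called 1 higher and 1 lower of 23 (8.70%), beside 4.72%. The 1 higher was Hspg2, the heparan sulphate proteoglycan perlecan, with 8573 and 7591 normalised counts in Hoxb1Mu, against 6961 and 6529.9 in WT. Its log2 fold change was 0.26 ± 0.07, with a DESeq2 adjusted p of 0.0246. The 1 lower was Met, the hepatocyte growth factor receptor that pairs with class B plexins, with 892 and 917 in Hoxb1Mu, against 1191 and 1124 in WT. Met had a log2 fold change of -0.36 ± 0.07 and a DESeq2 adjusted p of 0.0486. L1cam, an X-linked adhesion molecule of the Sema3a receptor complex, had 353 and 266 in Hoxb1Mu, against 194 and 177 in WT. The groups lay apart, with a log2 fold change of 0.72 ± 0.17 and an adjusted p of 0.159 by limma and of 0.0668 by DESeq2. Crmp1, Dpysl2, Dpysl3, Dpysl4 and Dpysl5, the collapsin response mediators that act downstream of Sema3a, had log2 fold changes between 0.18 for Dpysl2 and 0.39 for Dpysl4. The largest changes of the list were downward, at -1.28 ± 0.49 for Cd72 and -0.94 ± 0.42 for Timd2. Cd72 was low in level, with 5.13 and 10.4 normalised counts in Hoxb1Mu, against 20.2 and 18.3 in WT.

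Genes of Eph and ephrin signalling lay on both sides of WT. Of 18, both Hoxb1Mu libraries were higher in 7 (38.9%) and lower in 5 (27.8%), beside 26.4% and 27.1% of all genes, and the median log2 fold change was 0.02. DESeq2 called none of the 17 to which it gave an adjusted p, beside 4.72% of all genes. limma and edgeR called none of the 18 and 0.0% of all genes, while 4 (22.2%) had an unadjusted limma p under 0.05, beside 18.6%. Of 20 slit, robo, netrin and related guidance genes, 6 (30.0%) were higher in both Hoxb1Mu libraries and 4 (20.0%) lower, shares near those of all genes, with a median of 0.04. DESeq2 called 1 of the 15 to which it gave an adjusted p (6.67%), beside 4.72% of all genes. That gene was Slit1, a secreted repellent of midline axons, which was higher. limma and edgeR called none of the 20 and 0.0% of all genes, while 4 (20.0%) had an unadjusted limma p under 0.05, beside 18.6% of all genes. Slit1 had 594 and 570 normalised counts in Hoxb1Mu, against 348 and 387 in WT, a log2 fold change of 0.66 ± 0.10 with an adjusted p of 0.142 by limma and of 0.00549 by DESeq2. Both Hoxb1Mu libraries were the higher ones.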

How the data were processed

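Sequencing had been performed on 4 libraries, 2 of Hoxb1Mu and 2 of WT tissue, grouped here by the genotype labels, which name no batch. The submitters' processing notes name STAR 2.5.2 and the build mm10 for alignment, HTSeq for counting, and R 3.3.4 with DESeq2 for the values. Complementary DNA was amplified with an Ovation kit, and libraries were made with an Ovation kit per the labels and a TruSeq kit per the methods. Reads carried no molecular identifiers. The strand setting and the annotation release are not given in the sources used here. The deposited signal is a normalised count per gene and library, made by the authors by dividing reads by a size factor, and a mean over the libraries. The log2 column, the score column and the p-value columns deposited by the authors hold their own fold change, test statistic and p-values for Hoxb1Mu over WT, and none was used.

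limma 3.58.1 in R 4.3.3 was run with a trend on log2 of the normalised count plus a pseudocount of 1, over the 15760 genes whose mean reached 10 (43 did not), and with Benjamini-Hochberg adjustment over them. The symbols of 13 listed genes had been turned into dates, and these genes were not named. Every value was a whole multiple of a step of its library (100% within a tolerance of 0.001), so whole reads were recovered and given to DESeq2 1.42.0 and to edgeR 4.0.16 (quasi-likelihood test, 15732 genes after its own filter) as alternatives. DESeq2 left 3972 genes without an adjusted p. All tests were 2-sided with a threshold of 0.05. The scripts were tested on simulated data. Positions and exon lengths are from GENCODE vM21 on mm10, where all 51 members were found by symbol. RefSeq windows were found for 45 members.

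Values per library are given for the members that limma or DESeq2 called. They are also given for the 3 largest increases and decreases per class among members with a mean of at least 100 whose groups did not overlap, for the 2 highest levels per class and for members with known roles in heart, vessel, neural crest or hindbrain guidance. The members and the gene lists were chosen with earlier results of these data known, so lists are described by counts and medians only. The alternatives were other pseudocounts, another or no filter, rescaling to equal totals, DESeq2, edgeR and leaving out each library.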

Additional observations from a re-analysis of the deposited data

How the results depend on the processing

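No paired analysis was possible because the labels give no replicate numbers, and those used here follow the order of the samples. DESeq2 called 5 guidance genes where limma called 0, and limma called between 0 and 5 when a library was left out, with 5 only without Hoxb1Mu 1. The DESeq2 calls, 1 higher and 4 lower, became 0 and 0 with limma and with edgeR. With a library left out they were between 0 and 0 higher and between 0 and 3 lower, while DESeq2 calls over all genes were between 66 and 581, against 556 with all libraries. Left-out libraries moved the ligand median between 0.0584 and 0.1129 and the receptor median between -0.0165 and 0.1258. Counts of genes whose groups lay apart can only stay or rise when a library is left out, so their rise shows no dependence. They were 13 to 17 lower in Hoxb1Mu, against 11 with all libraries, and 23 to 30 higher, against 21.

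Of 385 log2 fold changes recomputed for the 35 genes with values per library, 366 kept direction and side of the threshold, 10 passed the threshold under an alternative and 9 changed sign, in 6 genes. With a library left out, Plxna1 ranged from -0.1003 to 0.0452, Epha7 from -0.0548 to 0.2886, Sema3c from -0.0703 to 0.4192, Epha2 from -0.051 to 0.1991, Epha4 from -0.0468 to 0.1088 and Efna5 from -0.0515 to 0.1218. None of the 6 was called in any setting. Another 17 genes, none of the 5 that DESeq2 called, kept their sign but moved by over 1.5 times without some library. Plxna1 was at 0.0005 when libraries were rescaled to equal totals, and that rescaling moved the median of all genes to 0.03. Pseudocounts and filters changed no direction or call. The cause of the other changes was not tested. With 2 libraries per group, log2 differences anywhere inside the intervals given remained possible.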
